A study of Rattus norvegicus with 12 samples.

Results

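Cholesterol and fatty acids are made in brain cells by chains of enzymes whose genes are switched on together by the SREBP transcription factors. The present comparison covers 37 such genes, the enzymes of both chains with their control and with the genes that carry, store and remove sterols, in the central nucleus of the amygdala (CeA) of alcohol-exposed and air-exposed rats. The genes were picked by name, with earlier results of these data known, so the choice was not blind to the values. All 37 were among the 37209 genes in the table of counts. After a filter on low counts 36 of them were tested, among 20944 genes in all. The exception, *Hsd17b7*, a ketoreductase of sterol synthesis, was listed at 0 counts in every rat, which allows up to 3 counts or between 0.0314 and 0.0768 CPM (counts scaled to library size) per library, a limit that covers counting error only.

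All rats were male, wild type Sprague Dawley animals of 14 to 16 weeks. In the CIE group (chronic intermittent ethanol), 6 rats breathed ethanol vapor for a part of each day over several weeks and were killed straight after the last vapor session, while still intoxicated. In the Control group, 6 rats were handled alike but breathed only air throughout. Rats were housed in groups, and which rats shared a cage is not given in the sources used here. The tests take each rat as independent. One library was made per rat, from poly-A RNA of CeA tissue punched from 1 hemisphere, and libraries held between 39082548 and 95647601 counts. Most of these libraries hold more counts than the average number of reads per sample that the authors state. Whether both mates of a read pair were counted is not given in the sources used here, and the reason for the mismatch was not tested. These counts, and the limit for *Hsd17b7*, may thus be of mates rather than of whole fragments. Rats 1 to 6 form the CIE group and rats 7 to 12 the Control group, so anything that follows the order of the numbers cannot be told apart from the exposure.

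A punch holds several kinds of cells, and lower expression in it can stand for fewer cells of a kind or less RNA per cell, which cannot be told apart here. Genes listed as CeA neuron markers were detected, though not all of them are particular to the CeA. In *Gad1*, an enzyme of GABA synthesis, CIE rats lay between 535 and 680 CPM and Control rats between 548 and 671 CPM. Its log2 fold change of -0.0009 was the smallest of the list, so it does not stand for the other markers. Of 10 CeA neuron markers tested, 8 had a negative log2 fold change, with a median of -0.10. *Crh* (-0.45) and *Nts* (-0.46) had a nominal p value below 0.05, as 4.31% of all genes tested did in that direction. Markers of neighbouring cortical neurons lay above the Control mean in CIE rats 1, 2, 4 and 6 and in Control rats 10 and 12. All 7 such markers had a positive log2 fold change, with a median of 1.03. Of these, 2 (*Cck* and *Neurod2*) had a nominal p value below 0.05, as 4% of all genes tested did in that direction. The median of the list in each rat, as a log2 difference from the Control mean, had a middle value of 1.02 over the CIE rats (-0.75 to 2.31) and of -0.44 over the Control rats (-0.74 to 1.15). The 8 striatal markers also had positive log2 fold changes (median 0.27, 0 at a nominal p value below 0.05), with rat medians from -0.33 to 2.35 and from -1.10 to 2.46. A fit with both scores as covariates is given with the enzymes.

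In sterol synthesis, acetyl-CoA units are joined and reduced to mevalonate, turned into isoprenoid units, linked to squalene, closed to lanosterol and then trimmed to cholesterol. SREBP2, held in the endoplasmic reticulum by SCAP and the INSIG proteins while sterols are plentiful, drives these genes when sterols run low, and SREBP1 mainly drives fatty acid synthesis. When sterols are in excess, the LXR receptors raise the cholesterol exporters ABCA1 and ABCG1. Since cholesterol hardly crosses the blood-brain barrier, the brain makes its own. Oligodendrocytes make much of it for myelin, astrocytes supply neurons with it on APOE particles, and neurons clear it as 24-hydroxycholesterol through CYP46A1.

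The sterol synthesis enzymes among the members were lower in the CIE group at nearly every step. Of the 17 enzymes tested from *Acat2* to *Dhcr7*, 17 had a negative log2 fold change, with a median of -0.30, and 16 had a nominal p value below 0.05. *Cyp51* and *Hmgcs1* were also down-regulated at 5% FDR, the false discovery rate over all genes tested. The remaining 19 genes were less uniform, and of these only *Elovl6* and *Fasn* had a nominal p value below 0.05. Among all 36 members, 18 (50.0%) were lower at a nominal p value below 0.05, where 4.31% of all genes tested were, and 0 were higher, where 4% of all genes were. At 5% FDR there were 2 members (5.56%), against 0.363% of all genes. Members had a median log2 fold change of -0.17 and all genes tested one of 0.00.

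In 6 enzymes every CIE rat lay below every Control rat, namely *Hmgcs1*, *Mvk*, *Mvd*, *Cyp51*, *Tm7sf2* and *Nsdhl*. They make up 16.7% of the members tested, and 0.554% of all genes were separated in this direction. No member was separated in the other direction, as 0.339% of all genes were. For these 6 the exact permutation test of the group means gave p = 0.00216, the smallest that 6 rats against 6 allow. Full separation of the groups fixes this value in advance, so it restates the separation and adds no support.

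**Figure D1:**
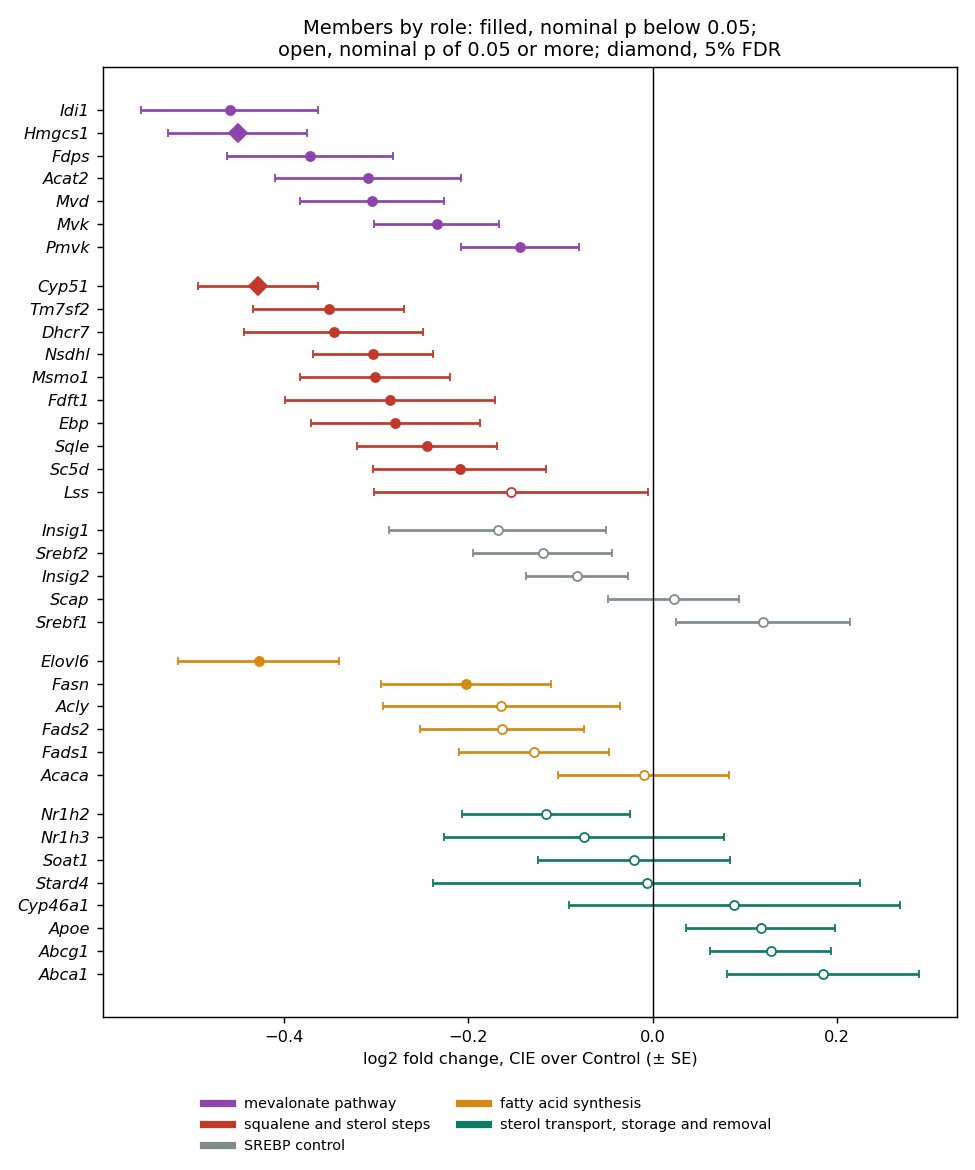
Log2 fold change of the 36 members tested, CIE over Control, with SE bars, grouped by role. All mevalonate and sterol enzymes lie left of 0, between -0.46 and -0.14, while the genes of sterol transport, storage and removal lie on both sides of 0, between -0.12 and 0.18.

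The windows around the transcription start of the 4 members with the smallest p values that the RefSeq promoter table holds are given here. Each has 300 bases in the GRCr8 build, read 5′ to 3′ on the strand of the gene. *Cyp51* is at chr4:30991443-30991742 on the plus strand, *Hmgcs1* at chr2:53382054-53382353 on the plus strand, *Idi1* at chr17:66547475-66547774 on the minus strand and *Nsdhl* at chrX:155817110-155817409 on the plus strand. Capitals mark CCAAT, the letters NF-Y binds, and GGGCGG, the letters Sp1 binds, on either strand (ATTGG and CCGCCC on the other).
Cyp51: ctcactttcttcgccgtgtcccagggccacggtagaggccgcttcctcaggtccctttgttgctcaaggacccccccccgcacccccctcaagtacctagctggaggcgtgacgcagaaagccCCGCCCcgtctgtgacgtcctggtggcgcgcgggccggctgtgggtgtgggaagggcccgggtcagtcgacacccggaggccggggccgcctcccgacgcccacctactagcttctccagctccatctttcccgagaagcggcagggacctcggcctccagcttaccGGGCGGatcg
Hmgcs1: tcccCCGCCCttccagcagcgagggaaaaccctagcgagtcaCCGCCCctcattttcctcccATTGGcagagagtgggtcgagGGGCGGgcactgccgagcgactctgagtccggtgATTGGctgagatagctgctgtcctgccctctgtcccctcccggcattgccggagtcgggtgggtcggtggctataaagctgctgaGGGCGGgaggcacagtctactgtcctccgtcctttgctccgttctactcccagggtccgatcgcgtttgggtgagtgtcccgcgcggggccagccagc
Idi1: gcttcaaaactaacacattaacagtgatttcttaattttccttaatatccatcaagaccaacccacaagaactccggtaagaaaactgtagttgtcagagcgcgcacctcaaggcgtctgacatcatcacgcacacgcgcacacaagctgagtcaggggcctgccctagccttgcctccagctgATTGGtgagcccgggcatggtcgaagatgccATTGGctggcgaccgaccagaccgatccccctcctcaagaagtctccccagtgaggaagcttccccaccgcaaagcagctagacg
Nsdhl: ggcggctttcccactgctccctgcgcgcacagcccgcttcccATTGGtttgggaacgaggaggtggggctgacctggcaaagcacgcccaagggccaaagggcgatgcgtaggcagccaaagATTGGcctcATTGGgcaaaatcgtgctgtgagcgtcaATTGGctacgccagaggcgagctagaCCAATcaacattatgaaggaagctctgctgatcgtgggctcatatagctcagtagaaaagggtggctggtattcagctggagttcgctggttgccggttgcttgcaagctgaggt

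The 5 CCAAT matches in the *Nsdhl* window and the 2 each in *Hmgcs1* and *Idi1* are visible as capitals, whereas the *Cyp51* window held 0 of them and 2 GGGCGG matches. CCAAT was found in 21 of the 29 members that the promoter table holds and in 38.6% of the 11912 tested genes with a window. Among the members with a nominal p value below 0.05 it was in 10 of 13, and among the other tested members in 10 of 15. GGGCGG was found in 24 of the 29 members and in 58.6% of tested genes. The E-box CACGTG, which SREBP can also bind, was in 4 of the 29 members (*Abca1*, *Insig1*, *Sc5d* and *Scap*) and in 9.34% of tested genes. The sterol element letters TCACNCCAC were in 0 of the 29 windows and in 1.23% of tested genes. At so low a share, 0 of 29 does not set the members apart, and only these exact letters were searched. Over all 27457 genes with a window, the shares were 39.6% for CCAAT, 36.0% for GGGCGG, 7.08% for CACGTG and 1.25% for TCACNCCAC. CCAAT on the minus strand can share bases with GGGCGG, and TCACNCCAC with CACGTG, and each motif was counted by itself. A match gives letters only, not a bound site, and a part of the motifs in the lower levels was not tested.

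The mevalonate pathway was lower at every step measured. *Hmgcs1*, which joins acetyl-CoA and acetoacetyl-CoA to HMG-CoA, lay between 219.9 and 259 CPM in the CIE group (median 240.3) and between 286 and 382 CPM in the Control group (median 329). The groups did not overlap, and its mean fell from 327 ± 34.3 to 239 ± 15.9 CPM (SD, n = 6 each). The log2 fold change was -0.45 (SE 0.08, FDR 0.0180), a change of -26.8%. Without CIE rat 1, CIE rat 2, Control rat 9 or Control rat 11 its FDR was 0.0600, 0.0508, 0.0628 or 0.0528. In the fit that includes the cortical and striatal scores the log2 change of *Hmgcs1* was -0.39 (FDR 0.0715).

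*Acat2*, which makes the acetoacetyl-CoA for this step, was less clearly set apart. It lay between 13.7 and 17.6 CPM in the CIE group (median 15.5) and between 15.2 and 23.9 CPM in the Control group (median 19.04). The log2 fold change was -0.31 (SE 0.10, FDR 0.359), and 2 CIE rats were below every Control rat.

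The 3 enzymes that add phosphate to mevalonate and remove its carboxyl group changed to unequal degrees. *Mvk*, mevalonate kinase, lay between 26.5 and 31.6 CPM in the CIE group (median 30.8) and between 32.2 and 38.7 CPM in the Control group (median 35.1), a log2 fold change of -0.23 (SE 0.07, FDR 0.248). *Pmvk*, the next kinase, lay between 34.6 and 41.6 CPM (median 37.0) against 37.4 to 46.3 CPM (median 41.4), with a log2 fold change of -0.14 (SE 0.06, FDR 0.575). *Mvd*, the decarboxylase, lay between 20.0 and 26.9 CPM (median 24.6) against 27.1 to 33.3 CPM (median 29.9), with a log2 fold change of -0.30 (SE 0.08, FDR 0.166). Thus *Mvk* and *Mvd* were separated between the groups and *Pmvk* was not, with 4 CIE rats below all Control rats.

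The isoprenoid steps held the lowest log2 fold change of all members. *Idi1*, the isomerase that makes the reactive isoprenoid unit, lay between 20.5 and 26.2 CPM in the CIE group (median 22.1) and between 26.0 and 37.7 CPM in the Control group (median 31.8). On the log2 scale the change was -0.46 (SE 0.10, FDR 0.0652). CIE rat 4 alone reached into the Control range. *Fdps*, which builds farnesyl pyrophosphate, lay between 49.5 and 63.1 CPM (median 56.3) against 62.4 to 89.3 CPM (median 71.2), a log2 fold change of -0.37 (SE 0.09, FDR 0.132), with 5 CIE rats below every Control rat.

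**Figure D2:**
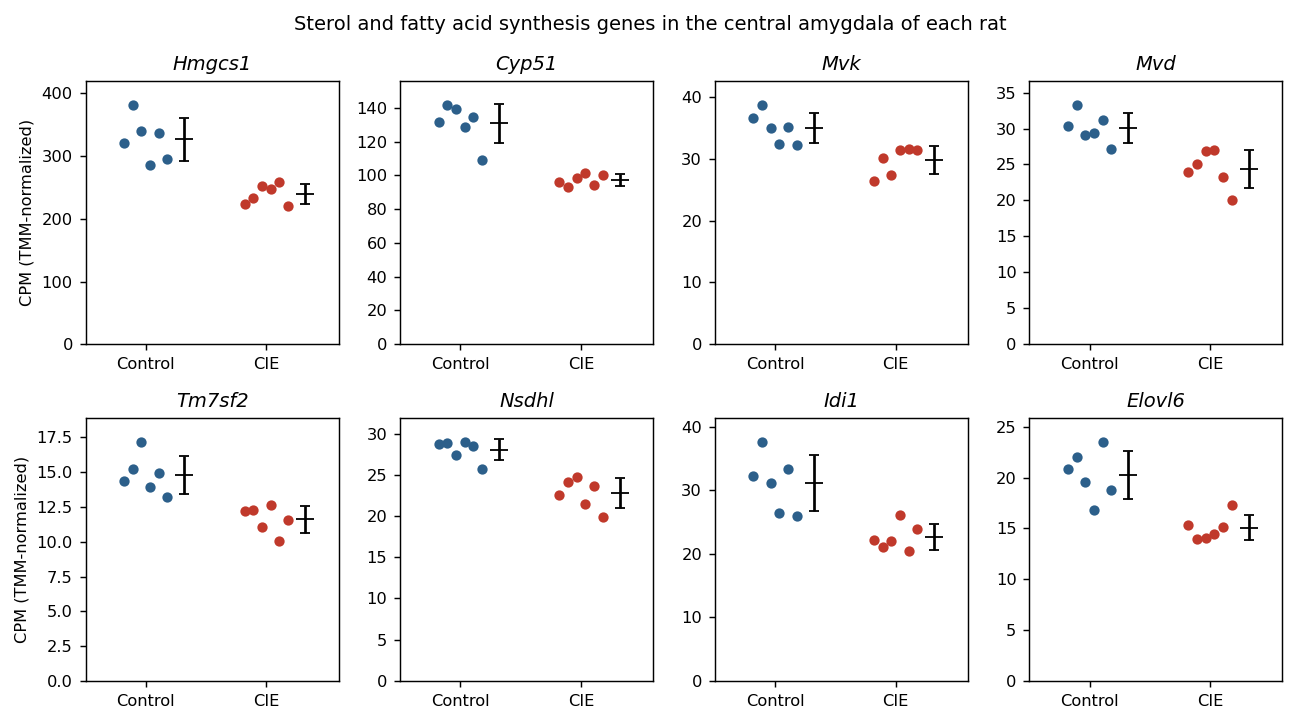
TMM-normalized CPM of 8 members in each rat (points; Control in blue, CIE in red, each axis from 0), with the mean and SD of each group in black. The groups do not overlap for *Hmgcs1*, *Cyp51*, *Mvk*, *Mvd*, *Tm7sf2* and *Nsdhl*, and in *Idi1* and *Elovl6* 5 of 6 CIE rats lie below every Control rat.

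At the entry to the sterol branch the groups overlapped in every gene. *Fdft1*, squalene synthase, lay between 94.3 and 123 CPM in the CIE group (median 113) and between 99.7 and 168 CPM in the Control group (median 138), a log2 fold change of -0.29 (SE 0.11, FDR 0.510). *Sqle*, squalene epoxidase, a rate-limiting step after mevalonate, lay between 57.7 and 66.7 CPM (median 61.1) against 59.4 to 79.7 CPM (median 74.9), a log2 fold change of -0.24 (SE 0.08, FDR 0.314). *Lss*, which closes squalene epoxide to lanosterol, lay between 34.4 and 62.1 CPM (median 39.5) against 38.7 to 61.8 CPM (median 49.2). The highest value of *Lss* was in CIE rat 6, and its log2 fold change of -0.15 (SE 0.15, FDR 0.844, interval -0.48 to 0.18) did not pass either threshold.

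*Cyp51*, the lanosterol demethylase, had the smallest p value of the members. It lay between 93.2 and 101 CPM in the CIE group (median 97.4) and between 109 and 142 CPM in the Control group (median 133). The CIE rats were close together, at 97.2 ± 3.30 CPM against 131 ± 11.7 CPM (SD, n = 6 each), and every one was below the lowest Control rat. The log2 fold change was -0.43 (SE 0.06, FDR 0.0116), a change of -25.7%. Leaving out single rats gave *Cyp51* FDR values between 0.0032 and 0.0436.

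The enzymes that reduce and demethylate the ring after *Cyp51* were lower too. *Tm7sf2*, a sterol C14 reductase, lay between 10.02 and 12.6 CPM in the CIE group (median 11.9) and between 13.2 and 17.2 CPM in the Control group (median 14.7), a log2 fold change of -0.35 (SE 0.08, FDR 0.118). *Msmo1*, the C4 methyl oxidase, lay between 85.3 and 108 CPM (median 91.2) against 102 and 129 CPM (median 116), a log2 fold change of -0.30 (SE 0.08, FDR 0.195). *Nsdhl*, which acts on the same methyl groups, lay between 19.9 and 24.7 CPM (median 23.1) against 25.8 and 29.0 CPM (median 28.7), a log2 fold change of -0.30 (SE 0.07, FDR 0.0758). Of the 3, *Msmo1* overlapped between the groups, with 4 CIE rats below all Control rats.

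In the last steps to cholesterol the groups overlapped in each gene. *Ebp*, which shifts the ring double bond, lay between 7.05 and 8.80 CPM in the CIE group (median 8.19) and between 8.71 and 11.5 CPM in the Control group (median 9.41), a log2 fold change of -0.28 (SE 0.09, FDR 0.359). *Sc5d*, the C5 desaturase, lay between 61.4 and 81.5 CPM (median 76.4) against 65.5 and 97.1 CPM (median 86.6), a log2 fold change of -0.21 (SE 0.09, FDR 0.582). *Dhcr7*, which makes cholesterol from 7-dehydrocholesterol, lay between 21.3 and 30.8 CPM (median 26.0) against 27.2 and 39.6 CPM (median 32.7), a log2 fold change of -0.35 (SE 0.10, FDR 0.221). The rats below the whole Control range numbered 5 of 6 for *Ebp*, 4 for *Dhcr7* and 1 for *Sc5d*.

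The genes that control the pathway did not pass either threshold. *Srebf2*, which encodes SREBP2, lay between 301 and 331 CPM in the CIE group (median 307) and between 274 and 378 CPM in the Control group (median 336). The CIE values lay inside the Control range, and the log2 fold change was -0.12 (SE 0.08, FDR 0.732), with a 95% interval of -0.29 to 0.05. *Scap*, the escort of SREBP, lay between 149.9 and 176 CPM (median 166) against 147 and 187 CPM (median 159.6), a log2 fold change of 0.02 (SE 0.07, FDR 0.958, interval -0.14 to 0.18).

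*Srebf1*, which encodes SREBP1, lay between 72.2 and 107 CPM in the CIE group (median 80.7) and between 67.2 and 86.2 CPM in the Control group (median 75.7). The log2 fold change was 0.12 (SE 0.09, FDR 0.801, interval -0.09 to 0.33), and CIE rat 6 alone stood above all Control rats. *Insig1*, the retention protein that is itself an SREBP target, lay between 55.7 and 72.6 CPM (median 65.2) against 52.2 and 92.5 CPM (median 72.9), a log2 fold change of -0.17 (SE 0.12, FDR 0.774, interval -0.43 to 0.09). *Insig2*, the second such protein, was at -0.08 on the log2 scale (SE 0.06, FDR 0.760). RNA levels of these genes do not measure how much SREBP was cleaved.

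Fatty acid synthesis genes were lower in part. *Elovl6*, which lengthens the 16-carbon product of fatty acid synthase, lay between 14.0 and 17.3 CPM in the CIE group (median 14.8) and between 16.8 and 23.5 CPM in the Control group (median 20.2). The change was -0.43 on the log2 scale (SE 0.09, FDR 0.0597), and 5 CIE rats were below every Control rat. *Fasn*, fatty acid synthase itself, lay between 345 and 485 CPM (median 449) against 415 and 561 CPM (median 502), a log2 fold change of -0.20 (SE 0.09, FDR 0.592). The nominal p value of *Fasn* was not below 0.05 in 14 of the 20 alternatives.

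The other 4 genes of this group had a nominal p value above 0.05. *Acly*, which supplies acetyl-CoA from citrate, had a log2 fold change of -0.16 (SE 0.13) and *Acaca*, the carboxylase that makes malonyl-CoA, one of -0.01 (SE 0.09). The desaturases of long polyunsaturated fatty acids were at -0.13 (*Fads1*, SE 0.08) and -0.16 (*Fads2*, SE 0.09). Their FDR values lay between 0.681 and 0.986. With the oligodendrocyte marker score as a covariate, *Fasn* was at -0.07 and *Elovl6* at -0.32, while *Acly* turned to 0.13 and *Acaca* to 0.08. In *Fads1*, 4 CIE rats were below and CIE rat 4 was above every Control rat.

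Genes of sterol transport, storage and removal did not share the lower levels. Of these 8 genes, 4 had a positive and 4 a negative log2 fold change, with a median of 0.04, and 0 had a nominal p value below 0.05. *Abca1*, the exporter that loads cholesterol onto APOE, lay between 57.0 and 95.3 CPM in the CIE group (median 69.7) and between 53.2 and 69.3 CPM in the Control group (median 64.6). The change was 0.18 on the log2 scale (SE 0.10, FDR 0.695, interval -0.05 to 0.42), and 3 CIE rats were above every Control rat. *Abcg1*, a second exporter, was at 0.13 (SE 0.07, FDR 0.641, interval -0.02 to 0.27), and 5 CIE rats were above and CIE rat 3 was below every Control rat.

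*Apoe*, the main lipid carrier of the brain, lay between 2343 and 3225 CPM in the CIE group (median 2565) and between 2145 and 2587 CPM in the Control group (median 2403), a log2 fold change of 0.12 (SE 0.08, FDR 0.766). *Cyp46a1*, the neuronal enzyme of cholesterol removal, lay between 178 and 349 CPM (median 242) against 178 and 376 CPM (median 210.1), or 0.09 as log2 fold change (SE 0.18, FDR 0.934). The ranges of both genes overlapped widely. The LXR genes *Nr1h2* (-0.12, SE 0.09) and *Nr1h3* (-0.07, SE 0.15), the sterol carrier *Stard4* (-0.01, SE 0.23) and *Soat1* (-0.02, SE 0.10), which stores cholesterol as esters, had log2 fold changes with FDR values between 0.801 and 0.997. *Stard4* was the least certain, with an interval of -0.52 to 0.51. With the oligodendrocyte marker score as a covariate, 7 of these 8 genes had a positive log2 fold change, with a median of 0.09, as *Nr1h2* (0.10), *Soat1* (0.05) and *Stard4* (0.18) changed sign.

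Within each rat, the 17 enzymes were summarised by their median log2 difference from the Control mean. This median lay between -0.39 and -0.19 in the CIE rats and between -0.15 and 0.20 in the Control rats. CIE rats 1 and 2 had the lowest values and CIE rat 3 the highest of its group, and Control rat 8 had the highest of all. The values describe the genes above and are no separate test.

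Markers of myelinating oligodendrocytes were lower in the same libraries. Of 19 such markers tested, 18 had a negative log2 fold change and 16 a nominal p value below 0.05, with a median log2 fold change of -0.56, and 0 passed 5% FDR. Over all genes tested, 4.31% were lower at that nominal threshold and 0.363% passed 5% FDR. Summed over the list, they made up 6165 to 14932 CPM in the CIE group and 9434 to 17607 CPM in the Control group, and none of them was at 0 in any rat. *Hapln2*, with a log2 fold change of 0.36, was the 1 marker with a positive value.

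Rat by rat, the markers and the enzymes were ordered alike in some rats and not in others. Control rat 8 was the highest of all rats in both, with a median log2 difference of 0.36 for the oligodendrocyte markers and 0.20 for the enzymes. Control rat 12 was the lowest Control rat in both, at -0.53 for the markers and -0.15 for the enzymes. In CIE rat 6 the markers were at 0.08, within the Control range, while the enzymes were at -0.26, below every Control rat. CIE rat 3 had the lowest marker median at -1.11 and an enzyme median of -0.19, the mildest of its group.

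**Figure D3:**
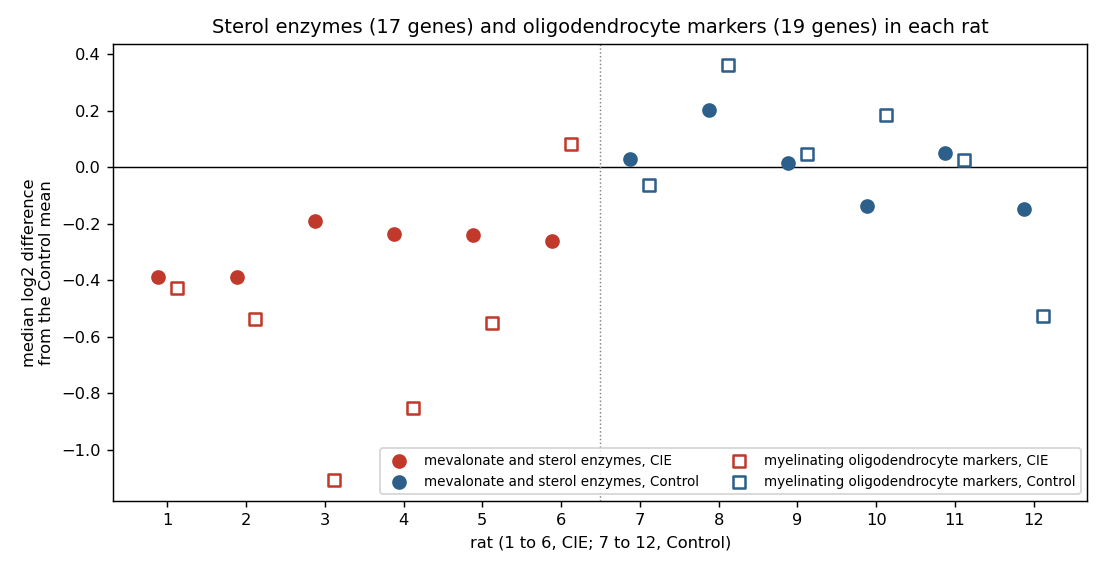
Median log2 difference from the Control mean in each rat, for the 17 mevalonate and sterol enzymes (filled circles) and for 19 oligodendrocyte markers (open squares), CIE in red and Control in blue. The enzyme medians of the groups do not overlap, whereas the marker median of CIE rat 6 lies at 0.08 and that of Control rat 12 at -0.53.

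With the oligodendrocyte marker score as a covariate, 16 of the 17 enzymes kept a negative log2 fold change, with a median of -0.30, and 10 had a nominal p value below 0.05, while 0 passed 5% FDR. *Hmgcs1* was at -0.46 (SE 0.10, FDR 0.128), *Cyp51* at -0.36 (SE 0.08, FDR 0.137), *Mvd* at -0.39 (SE 0.10) and *Nsdhl* at -0.34 (SE 0.09). *Lss* turned to 0.19 (SE 0.11) and *Ebp* moved to -0.12 (SE 0.10). The median standard error over the members was 0.105 with the score and 0.0902 without it. In this fit *Abca1* (0.34, SE 0.11) and *Srebf1* (0.25, SE 0.10) were higher at a nominal p value below 0.05, with FDR values of 0.292 and 0.426.

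When cortical and striatal scores were the covariates, 17 enzymes had a negative log2 fold change, with a median of -0.25, and 13 a nominal p value below 0.05. *Fdft1* moved to -0.16 (SE 0.09), *Sc5d* to -0.10 (SE 0.07) and *Pmvk* to -0.10 (SE 0.06), none of them below that threshold. Over the 20 alternatives the nominal p value was not below 0.05 in 14 for *Pmvk*, 13 for *Sc5d* and 7 for *Fdft1*. *Cyp51* was at -0.39 (SE 0.07, FDR 0.0458).

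**Figure D4:**
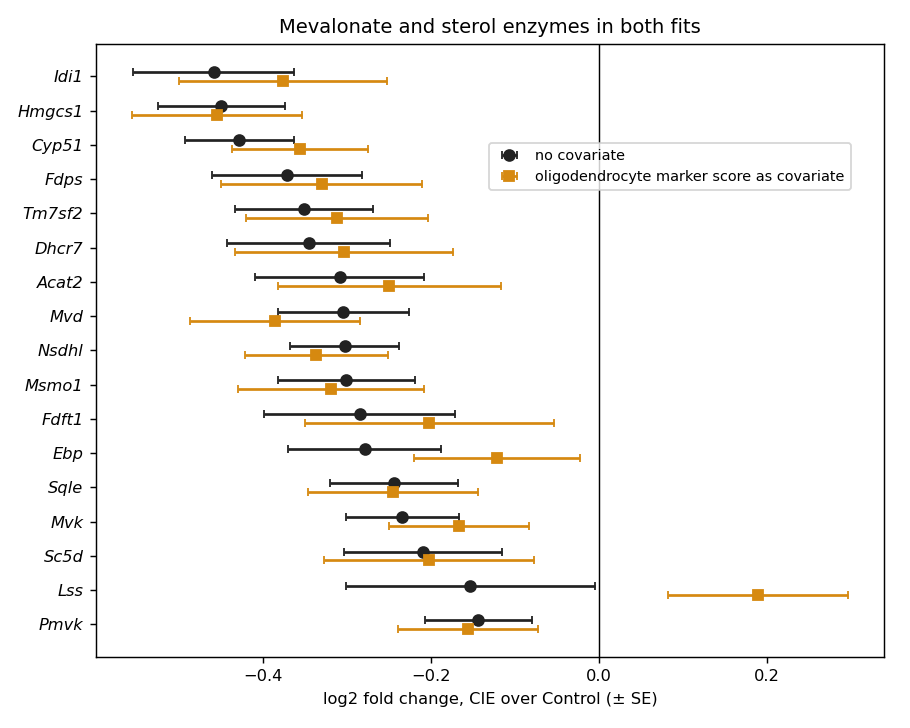
Log2 fold change with SE of the 17 mevalonate and sterol enzymes, without a covariate (black circles) and with the oligodendrocyte marker score as a covariate (orange squares). Most pairs lie close together, with *Hmgcs1* at -0.45 and -0.46, and *Lss* changes sign, from -0.15 to 0.19.

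Other cell types were checked the same way. Over all genes tested, 4.31% were lower and 4% higher at a nominal p value below 0.05. Of 8 endothelial markers 4 were lower at that threshold, with a median log2 fold change of -0.27. They summed to 191 to 259 CPM in the CIE group and 219 to 277 CPM in the Control group. All 6 meningeal fibroblast markers had a negative log2 fold change, with a median of -0.77, and 4 had a nominal p value below 0.05. Of these, 3 (*Col1a1*, *Col3a1* and *Igf2*) passed 5% FDR, as 0.363% of all genes tested did. The list summed to 41.2 to 79.7 CPM against 89.2 to 147 CPM, which do not overlap. Astrocyte markers, whose cells also make sterols, had a median log2 fold change of -0.03. Of the 12, 6 had a negative and 6 a positive value, with 2 in each direction at a nominal p value below 0.05. Neuron markers were at 0.02, oligodendrocyte precursor markers at -0.07, microglia markers at -0.09, CeA neuron markers at -0.10 and choroid plexus markers at -0.23. None of the markers tested in the endothelial and meningeal lists was at 0 in any rat, and the part of these cells in the enzyme result was not tested.

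Beyond the members, 60 other genes of sterol and fatty acid handling were tested. Of these, 6 were lower and 7 higher at a nominal p value below 0.05, 0 passed 5% FDR, and the median log2 fold change was -0.02. Over all genes tested, 4.31% were lower and 4% higher at that nominal threshold, and 0.363% passed 5% FDR. The 60 include 16 genes of sterol synthesis and uptake, of which 9 had a negative and 7 a positive log2 fold change, with a median of -0.02. Lower genes included *Elovl1* (-0.62, SE 0.14, FDR 0.113), an elongase of very long saturated fatty acids, *Slc25a1* (-0.33, SE 0.09, FDR 0.219), the mitochondrial citrate carrier, and *Hsd17b12* (-0.18, SE 0.08, FDR 0.554), a reductase of chain elongation. Higher genes included *Thrsp* (0.57, SE 0.13, FDR 0.107), a regulator of fatty acid synthesis, *Ch25h* (0.77, SE 0.18, FDR 0.119), which makes 25-hydroxycholesterol and *Acacb* (0.39, SE 0.15, FDR 0.476), the carboxylase linked to fatty acid oxidation. *Faxdc2* (0.40, FDR 0.484), *Erlin1* (0.32, FDR 0.552) and *Acsl5* (0.16, FDR 0.575) were also higher at a nominal p value below 0.05.

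In *Thrsp* and *Ch25h* the groups did not overlap. *Thrsp* lay between 13.9 and 19.2 CPM in the CIE group (median 15.5) and between 7.78 and 12.9 CPM in the Control group (median 11.4). *Ch25h*, scarce in the punches, lay between 1.46 and 2.63 CPM (median 1.78) against 0.849 and 1.30 CPM (median 1.11). The exact permutation p was 0.00216 for each, a value that full separation of the groups fixes in advance. Over all genes tested, 0.339% were separated in this direction, and among the 60 other genes these were the only 2 separated. The genes of SREBP processing numbered 6 among the 60, of which *Erlin1* alone had a nominal p value below 0.05.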

How the data were processed

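Poly-A RNA of CeA punches was sequenced in 12 rats, 1 library each. Reads were aligned by the authors with BWA (genome Rnor_6.0) and assigned to genes with HTSeq. Raw counts were deposited, and they include genes at 0 in every rat. All Control columns also carry CIE in their titles, so groups were taken from the treatment label. The gene annotation and the strand and overlap settings are not given in the sources used here, so reads of overlapping genes may be shared. The test was that of edgeR 4.0.16 in R 4.3.3 (TMM normalization, filterByExpr with its minimum count of 10, two-sided quasi-likelihood F test, 6 rats against 6, no covariate). FDR is the Benjamini-Hochberg adjusted p value over 20944 genes. CPM is TMM-normalized, SE is the size of the log2 fold change over the root of F, and 95% intervals use SE with 10 degrees of freedom. Single genes were also compared by the exact permutation test of mean log2(CPM + 0.5). DESeq2 1.42.0 and limma 3.58.1 were alternatives. Figures were drawn with matplotlib 3.10.9.

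On counts simulated for 20944 genes, 200 of them changed by a log2 fold change of 1, edgeR recovered 133 and made 5 false calls, and among the 116 changed genes with at least 5 CPM it recovered 110. A first acceptance limit on the number recovered was not met and was replaced after that result by limits on fold size, false calls and abundant genes. Changes as small as those of the members were not simulated.

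The members and lists were chosen with earlier results of these data known. Members are described by role, with the range of each group for those with a nominal p value below 0.05, for *Srebf1*, *Srebf2*, *Scap*, *Insig1*, *Fasn*, *Apoe* and *Cyp46a1*, and for the largest change of each role. *Lss*, *Thrsp* and *Ch25h* were given ranges after their values were seen. Other pathway genes were named at a nominal p value below 0.05, up to 12 by smallest p, of which 3 lower ones are counted but not reported here by name. Promoter windows came from RefSeq (GRCr8), which held 29 of the 37 members. Rnor_6.0 coordinates were not used here.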

Additional observations from a re-analysis of the deposited data

Results flagged for a closer look

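In 3 of 72 combinations of a member and a group, 1 rat stood apart from the other 5 by Dixon's 95% criterion, which chance alone meets in about 5% of groups. *Srebf1* was at 107 CPM in CIE rat 6, and the other CIE rats lay between 72.2 and 82.2 CPM. *Apoe* was at 3225 CPM in CIE rat 3, the rat with the lowest oligodendrocyte marker median (-1.11), and the other CIE rats lay between 2343 and 2574 CPM. *Cyp46a1* was at 376 CPM in Control rat 10, whose striatal marker median was the highest of all rats (2.46), and the other Control rats lay between 178 and 239 CPM. Whether the values that stood apart go with the marker levels of those rats was not tested.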

How the results depend on the processing

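No paired analysis was possible because the rats of the groups share no numbers. There were 20 alternatives. All 17 enzymes tested had a negative log2 fold change in each of them except in the fit with the oligodendrocyte score, where *Lss* was positive, and 10 to 16 enzymes were lower at a nominal p value below 0.05. The number of members at 5% FDR was 2 in the comparison reported, 8 with DESeq2 and 7 with limma-voom and sample quality weights, 1 with cortical and striatal scores in the fit (without *Hmgcs1*) and 0 with the oligodendrocyte score. It ranged from 1 to 4 on leaving out single rats, being 1 without CIE rat 1, CIE rat 2, Control rat 9 or Control rat 11, where *Cyp51* alone passed, and 4 without Control rat 10. The members that passed with DESeq2 were *Cyp51*, *Elovl6*, *Fdps*, *Hmgcs1*, *Idi1*, *Mvd*, *Nsdhl* and *Tm7sf2*. The shares of all genes called that are given above belong to the comparison reported only. Those of the alternatives are not given here, so more members called can go with more genes called in general. On the simulated counts DESeq2 recovered 147 changed genes with 24 false calls, limma-voom 132 with 4 and edgeR 133 with 5. Members higher at a nominal p value below 0.05 numbered 0 in the comparison reported, 1 (*Abcg1*) with library size only, with DESeq2 and with limma-voom, 2 with the oligodendrocyte score, and 0 to 2 with a rat left out. The members lower at that threshold numbered 14 to 21 with a rat left out, and the median log2 fold change of all members tested lay in every alternative between -0.23 and -0.13. In log2 fold change, *Scap* turned to -0.0436 and *Cyp46a1* to -0.0178 with the cortical and striatal scores. On leaving out single rats, *Scap* ranged from -0.0018 (without Control rat 11) to 0.0751 and *Cyp46a1* from -0.0277 (without CIE rat 2) to 0.272. With the oligodendrocyte score 6 members changed sign (*Lss*, *Acly*, *Acaca*, *Nr1h2*, *Soat1* and *Stard4*). The causes were not tested. The lowest count of any tested enzyme in any rat was 352 (*Ebp*).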
